A study of Mus musculus with 48 samples.

Results

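The 38 genes described here encode ATF4, other transcription factors of the integrated stress response, and genes of amino acid synthesis, amino acid transport, tRNA charging and stress signalling that are known as targets of that response. They were chosen by name as a pathway, and all 38 were found among the 47480 gene symbols of each count table. By role they comprise 6 transcription factors, 5 feedback and signalling genes, 8 genes of amino acid and one-carbon synthesis, 7 amino acid transporters, 4 genes for secreted factors and a receptor, and 8 tRNA synthetases.

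RNA was sequenced from C2C12 cells, a mouse myoblast line that fuses into multinucleated myotubes when serum is reduced. The 48 libraries fell into 12 groups of 4: myoblasts and differentiated cells, each with or without stretching for 1, 3 or 6 h. Cells under stretch were pulled equally in all directions, in cycles, on collagen-coated flexible membranes, and the non-stretched cells of the same time point were grown on the same plates without stretching. All groups are 1 cell line on 1 surface, each experiment gave a pair of samples to a group, and the p-values below therefore measure the spread between these samples. The exception is differentiated cells stretched for 1 h, a group that held 1 sample each of the experiments B17 and B28 and a pair of B25, with no non-stretched sample of B17. No experiment held both stages: myoblasts came from B27 and B31, and differentiated cells from B25, B28 and B17. A difference between stages therefore cannot be told apart from one between experiments.

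The integrated stress response begins with kinases that phosphorylate the translation factor eIF2 when amino acids are short, when proteins misfold in the endoplasmic reticulum (ER), or under other stresses. Protein synthesis then slows while translation of the Atf4 mRNA increases, and the ATF4 protein, paired with C/EBP factors, switches on genes that supply amino acids and charged tRNAs. The same programme carries its own brake, since the phosphatase subunit GADD34 (Ppp1r15a) reverses eIF2 phosphorylation, and it can lead to cell death through CHOP (Ddit3). In muscle, Fgf21 and Gdf15 are the secreted signals of this response. Because ATF4 is controlled largely in translation and ERK, calcium and ER signals act on several of these genes separately, mRNA levels report the targets and not the state of eIF2.

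Libraries held 48447318 to 77080730 counts. Muscle differentiation markers separated the stages: Ckm, the muscle creatine kinase, lay between 0 and 0.223 in CPM (counts relative to the size of a library, scaled within a stage) in the 24 myoblast libraries and between 246 and 371 CPM in the 24 libraries of differentiated cells, whereas Myod1 was present in all 48 at 92.6 to 185 CPM. Of the markers of other cell types, 4 are given here: those of endothelium (Pecam1), leukocytes (Ptprc), epithelium (Epcam) and fat cells (Adipoq) stayed at or below 0.133 CPM. Proliferating cells remained in the differentiated cultures, with Mki67 at 70.0 to 226 CPM against 445 to 707 CPM in myoblasts. In such bulk samples fewer cells of a type and less RNA per cell cannot be told apart. Among the libraries that bear on the genes below, replicate 9 of the non-stretched differentiated cells at 6 h was the highest of its group of 4 for 33 of the 38 genes, against 31.2% of all genes. Replicate 10 of that group was the lowest for 26 of 38 (24.6%). Among the stretched differentiated cells at 6 h, replicate 7 was the lowest for 28 of 38 (23.4%). Replicate 9 of the stretched myoblasts at 6 h was the highest for 29 of 37 (25.7% of all genes), and at 1 h replicate 9 of the stretched myoblasts was the highest for 25 of 37 (23.7%) while replicate 8 was the lowest for 28 of 37 (30.5%). Among differentiated cells stretched for 1 h, replicate 4 was the lowest for 22 of 38 (33.4%).

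Without stretching, the genes spanned a wide range of levels. In the 12 non-stretched myoblast libraries the highest levels per exon length belonged to Phgdh, the first enzyme of serine synthesis, at 145 ± 8.9 CPM per kb (SD, n = 12), and to Atf4 at 108 ± 3.3 CPM per kb. In the 12 non-stretched libraries of differentiated cells Atf4 ranked first, at 154 ± 8.6 CPM per kb, and Phgdh lay at 84.3 ± 6.5 CPM per kb. Of the stretches of 31 bases in Phgdh, 55.9% also occur in another gene, mostly the pseudogene Gm7901, so its level is uncertain. The stages differed most in Fgf21, a secreted metabolic hormone, which had 0 to 4 counts in each non-stretched myoblast library and 48.7 ± 6.5 CPM per kb in non-stretched differentiated cells. Vldlr, the very low density lipoprotein receptor, lay at 0.118 ± 0.034 CPM per kb in myoblasts and 1.41 ± 0.17 in differentiated cells. Nupr1, a small stress-induced chromatin protein, lay at 3.76 ± 0.26 and 19.6 ± 1.4 CPM per kb, respectively. Gdf15 had the opposite order, with 13.7 ± 1.4 CPM per kb in myoblasts and 4.75 ± 0.44 in differentiated cells, as did the glutamine transporter gene Slc1a5 with 8.18 ± 0.51 and 2.94 ± 0.25. The spreads of these groups were far smaller than the differences, and no test was run between stages because counts were scaled within each stage. The stages also came from different experiments.

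**Figure D1:**
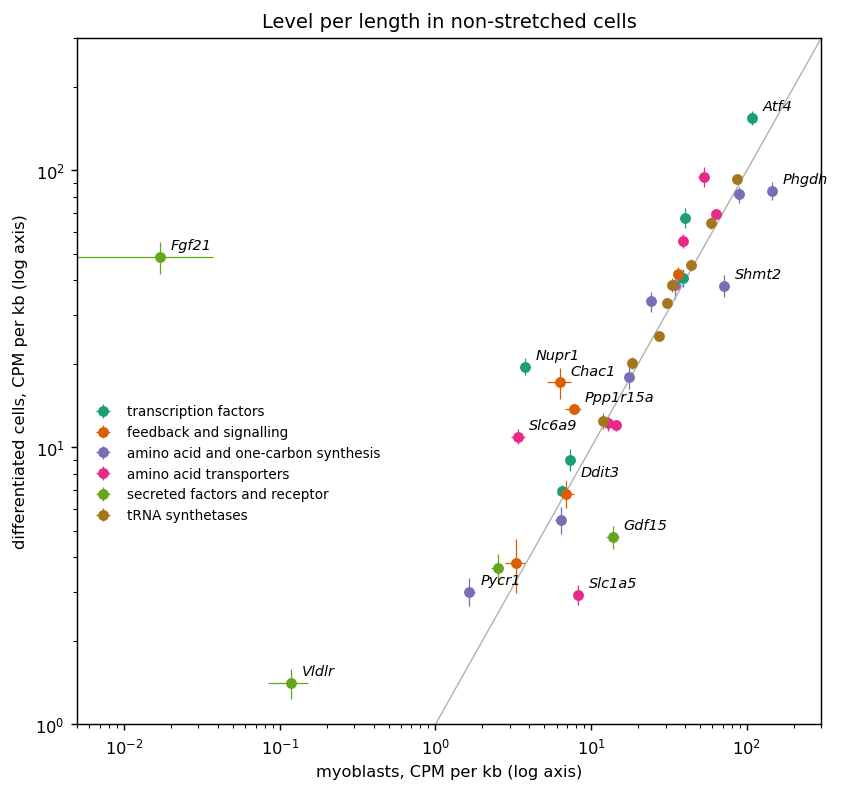
Level of each of the 38 genes in non-stretched cells, as CPM per kb of exon, in myoblasts (x axis, log) against differentiated cells (y axis, log). Points are means of 12 libraries with SD, coloured by role, and the grey line marks equal levels; Fgf21 lies farthest from it, at 48.7 CPM per kb in differentiated cells and 0.017 in myoblasts, where the SD (0.02) reaches 0 and is cut at the axis.

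ATF4 and C/EBP proteins bind together to the C/EBP-ATF response element, searched here as TGATGNAAN on both strands of the windows from 250 bases before to 50 bases after each RefSeq start (GRCm38.p6). Of the 38 genes 32 had a window, and 11 of these held the element, against 3.95% of all 32851 windows of that length. The 11 were Aars, Asns, Chac1, Fgf21, Gars, Nupr1, Pycr1, Slc1a4, Trib3, Vldlr and Yars. Of these, Asns, Chac1, Fgf21, Trib3 and Vldlr are described below by library and Slc1a4 by its difference between stages, whereas Ppp1r15a, Ddit3, Atf4, Cebpg, Slc7a1, Slc6a9 and Gdf15 had none in this window. The cyclic AMP response element TGACGTCA, a search added after the values were seen, was found for 1 of the 32 genes, Ppp1r15a, and in 1.79% of all windows. The matches of these 6 genes and of Ppp1r15a are printed below in capitals within 30 bases, 5′ to 3′ on the strand that carries the match, to show how the letters that differ in the element are filled in each gene; a match is a description of sequence and not of binding.
Asns, chr6:7693213-7693242, minus strand: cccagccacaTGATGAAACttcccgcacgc
Chac1, chr2:119351038-119351067, minus strand: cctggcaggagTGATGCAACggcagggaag
Trib3, chr2:152344028-152344057, plus strand: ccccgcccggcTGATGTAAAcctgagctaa
Slc1a4, chr11:20332699-20332728, plus strand: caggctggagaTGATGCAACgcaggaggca
Fgf21, chr7:45615611-45615640, plus strand: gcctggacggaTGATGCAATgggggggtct
Vldlr, chr19:27216809-27216838, minus strand: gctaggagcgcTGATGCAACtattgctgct
Ppp1r15a, chr7:45526261-45526290, minus strand: gcctctccggTGACGTCAgcacagcgccgc
Counted along the gene's own strand from its start site, the most upstream base of the match lay at -23 in Asns, -194 in Chac1, 14 in Trib3, -5 in Slc1a4, -140 in Fgf21, -201 in Vldlr and -12 in Ppp1r15a.

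Stretched and non-stretched cells of each stage and time were compared first over the whole set, to ask whether and when the programme moved. A gene was said to rise or fall where its adjusted p, over all genes tested in edgeR's quasi-likelihood test, was under 0.05, and to pass both limits where its log2 fold change was also at least 0.58 in size. In myoblasts at 1 h, 10 of the 37 genes tested rose and 2 fell, and 5.92% of all 14938 genes passed the test there. In differentiated cells at 1 h, 1 of 38 rose and 1 fell, beside 0.663% of all genes. At 3 h, 19 of 37 rose and 3 fell in myoblasts (31.9% of all genes), and 17 of 38 rose and 1 fell in differentiated cells (22.2%). At 6 h the balance was gone in myoblasts, with 4 of 37 higher and 4 lower (27.2%), whereas in differentiated cells 8 of 38 rose and 1 fell (22.3%). The shares of the set that passed, 21.6% and 23.7% at 6 h, were thus near the background, while those at 1 h in myoblasts and at 3 h in both stages (32.4%, 59.5% and 47.4%) were above it. In the direction of a rise the background was 1.67% at 1 h, 16% at 3 h and 14.1% at 6 h in myoblasts, and 0.193%, 10.8% and 11.5% in differentiated cells. In that of a fall it was 4.24%, 15.8% and 13.0%, and 0.47%, 11.4% and 10.8%.

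Most of these changes were small. The median log2 fold change of the tested set was 0.13, 0.09 and 0.02 at 1, 3 and 6 h in myoblasts and -0.04, 0.11 and 0.09 in differentiated cells, and that of all genes lay between -0.01 and 0.00 in the 6 comparisons. Only 1 gene passed both limits in 5 of the comparisons and none did in differentiated cells at 3 h. These were Ppp1r15a at 1 h in both stages (1.25% of all genes in myoblasts and 0.27% in differentiated cells), Vldlr at 3 h in myoblasts (1.71%), and Ddit3 at 6 h in both stages (2.17% and 2.04%); at 3 h in differentiated cells the background was 1.63%, and DESeq2 called none there either, while 24 genes had an unadjusted p under 0.05. Split by direction, the higher and lower shares of all genes past both limits were 0.254% and 0.997% at 1 h, 0.459% and 1.25% at 3 h, and 1.35% and 0.823% at 6 h in myoblasts, and 0.0901% and 0.18%, 0.89% and 0.741%, and 0.518% and 1.52% in differentiated cells. Counted by library, stretched and non-stretched groups did not overlap for 15 of 37 genes at 1 h in myoblasts (13.1% of all genes) and 4 of 38 in differentiated cells (6.36%), for 19 of 37 (29.5%) and 20 of 38 (25.1%) at 3 h, and for 6 of 37 (28.2%) and 6 of 38 (25.2%) at 6 h.

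**Figure D2:**
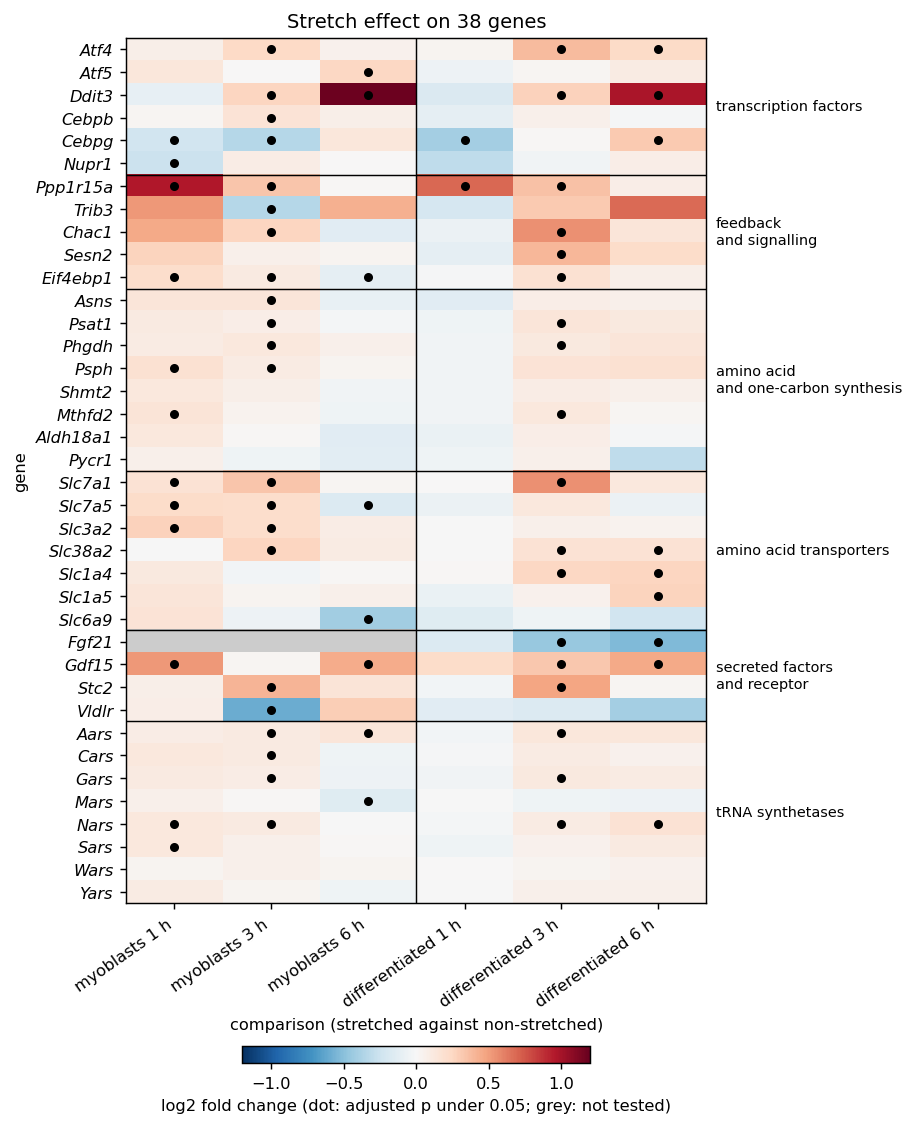
Log2 fold change of each gene (rows, by role) between stretched and non-stretched cells in the 6 comparisons (columns), 8 libraries each. Red is higher and blue lower in stretched cells, a dot marks an adjusted p under 0.05, and grey marks Fgf21 in myoblasts, where it was not tested; the darkest cells are Ppp1r15a at 1 h (0.96 in myoblasts) and Ddit3 at 6 h (1.18).

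The counts depended on single libraries at 1 h in myoblasts and at 6 h in differentiated cells. Without replicate 9 or without replicate 10 of the stretched myoblasts at 1 h, 3 genes passed the test in place of 12, and all genes past it fell from 884 to 478 and 472. Without replicate 9 of the non-stretched differentiated cells at 6 h, 20 genes rose and 1 fell in place of 8 and 1, although the number over all genes was close to before, at 3416 against 3438. The 12 additional genes there were Asns, Psat1, Phgdh, Psph, Shmt2, Sesn2, Atf5, Eif4ebp1, Gars, Aars, Sars and Trib3. Without replicate 10 of the same non-stretched group, which was low for most of the set, 5 genes rose and 2 fell, and 2717 of all genes passed. In myoblasts at 3 h the count over sets that left out 1 library lay between 17 and 21, but it was 12 where all 24 libraries of the stage shared 1 estimate of the spread. In differentiated cells at 3 h it lay between 12 and 18, and at 6 h in myoblasts it fell from 8 to 5 without non-stretched replicate 9. Of the genes past the test, 3 of 12, 16 of 22 and 4 of 8 at 1, 3 and 6 h in myoblasts, and 1 of 2, 12 of 18 and 6 of 9 in differentiated cells, passed in every set that left out 1 library. At 1 h in myoblasts those 3 were Ppp1r15a, Slc3a2 and Gdf15.

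**Figure D3:**
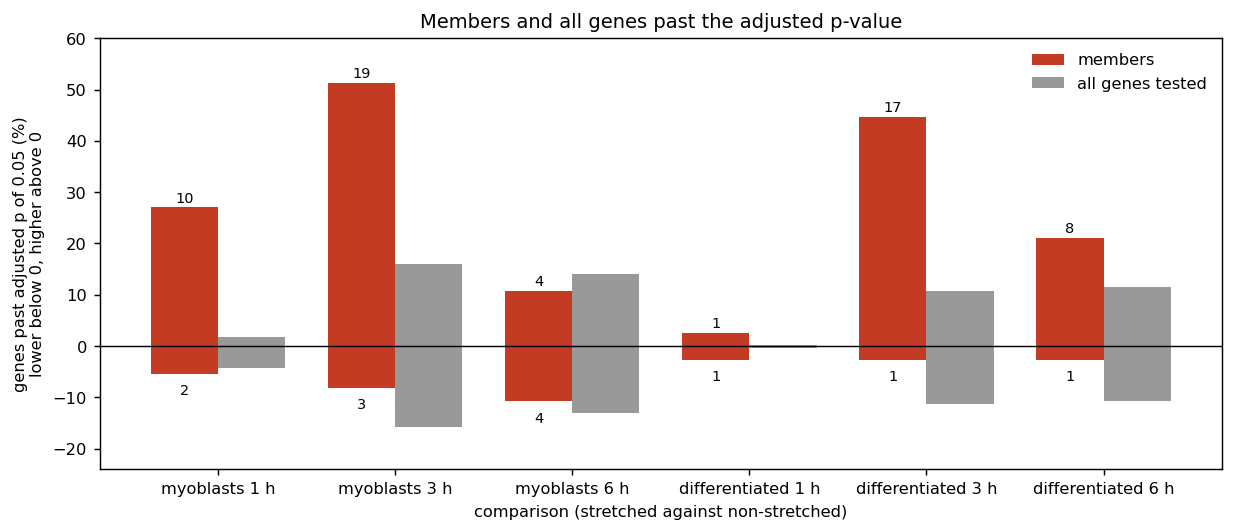
Share of the 37 or 38 genes tested (red) and of all genes tested (grey) that passed an adjusted p of 0.05 in each comparison, those higher in stretched cells above 0 and those lower below 0, in percent. Numbers on the bars count the genes; the red bars exceed the grey above 0 most clearly at 3 h, with 19 and 17 genes, and at 6 h in myoblasts 4 genes lie on each side.

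Ppp1r15a (chr7:45522916-45526268, minus strand, mm10), which encodes GADD34, the stress-induced subunit that directs a phosphatase to eIF2, rose at 1 h and returned towards the non-stretched level by 6 h. In non-stretched myoblasts at 1 h it measured 27.2, 27.1, 23.4 and 25 CPM in replicates 7 to 10. In stretched myoblasts it measured 49.9, 47.8, 52.3 and 49.2 CPM. Every stretched library lay above every non-stretched one, a 1.94-fold difference (log2 0.96 ± 0.05, SE, adjusted p = 1.62e-06), with log2 differences of 0.85 in experiment B27 and 1.07 in B31. In differentiated cells at 1 h the non-stretched libraries gave 41.6, 39.9, 42.8 and 43.4 CPM, and the stretched replicates 4, 7, 8 and 9 gave 77.8, 64.9, 66.6 and 61.8 CPM. The groups again did not overlap, and replicate 4 of experiment B17 was the highest. The difference was 1.61-fold (log2 0.69 ± 0.07, adjusted p = 0.00336), 0.69 within B25 and 0.52 within B28.

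At 3 h the rise of Ppp1r15a was smaller and still complete, with no overlap in either stage. Non-stretched myoblasts held 19.5 to 20.8 CPM and stretched ones 28.2, 24.2, 26.8 and 21.4 CPM (log2 0.33 ± 0.07, adjusted p = 0.00242), and differentiated cells held 39.4 to 41.3 against 51.3, 48.0, 55.8 and 51.4 CPM (log2 0.35 ± 0.04, adjusted p = 0.000468). After 6 h the groups overlapped, at log2 0.01 ± 0.04 in myoblasts and 0.08 ± 0.05 in differentiated cells. The effect at 6 h was below that at 1 h by 0.95 ± 0.08 on the log2 scale in myoblasts (adjusted p = 3.01e-08) and by 0.61 ± 0.08 in differentiated cells (adjusted p = 7.59e-05).

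Ddit3 (chr10:127290774-127296288, plus strand), which encodes the pro-apoptotic factor CHOP, had the opposite course. At 1 h non-stretched myoblasts held 11.7, 11.6, 12.5 and 13.6 CPM and stretched ones 10.9, 10.9, 13.4 and 10.7 CPM, groups that overlapped. At 3 h the stretched libraries, 13.5, 14.9, 14.3 and 16.4 CPM, all exceeded the non-stretched ones at 12.2 to 12.7 CPM. The gene rose there by log2 0.25 ± 0.06 (adjusted p = 0.0041). At 6 h non-stretched myoblasts held 12.8, 12.3, 13.4 and 12.2 CPM, and stretched ones 31.5, 22.6, 36.4 and 24.0 CPM. Each stretched library was well above every non-stretched one, a 2.26-fold rise (log2 1.18 ± 0.13, adjusted p = 0.000175; 1.09 within B27 and 1.2 within B31), and replicates 7 and 9 were higher than 8 and 10.

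In differentiated cells Ddit3 moved alike in time. At 1 h the stretched libraries, 11.8, 13.0, 13.5 and 13.6 CPM, lay just under the non-stretched ones at 13.8 to 15.7 CPM, and the difference did not pass the test (log2 -0.18 ± 0.07, adjusted p = 0.423). At 3 h the stretched replicates held 17.7, 19.9, 17.9 and 20.8 CPM and the non-stretched 14.2, 14.1, 17.7 and 16.9 CPM (log2 0.27 ± 0.08, adjusted p = 0.0408, which rose to as much as 0.101 with 1 library left out). At 6 h the values were 27.9, 25.5, 38.8 and 33.4 CPM against 14.8, 14.9, 17.7 and 16.3 CPM. All stretched libraries were above all non-stretched ones, and those of B28 (replicates 9 and 10) were above those of B25. The rise was 1.97-fold (log2 0.97 ± 0.12, adjusted p = 0.000704; 0.84 within B25 and 1.08 within B28). Between 1 h and 6 h the stretch effect on Ddit3 grew by 1.28 ± 0.15 in myoblasts (adjusted p = 2.13e-06) and by 1.15 ± 0.15 in differentiated cells (adjusted p = 4.22e-05). The stages did not pass a test of their difference at 6 h (-0.21 ± 0.19, adjusted p = 0.613). The end of Ddit3 overlaps the end of Mars on the other strand, and the library kit marked strand; Mars fell by 0.14 ± 0.03 on the log2 scale at 6 h in myoblasts.

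**Figure D4:**
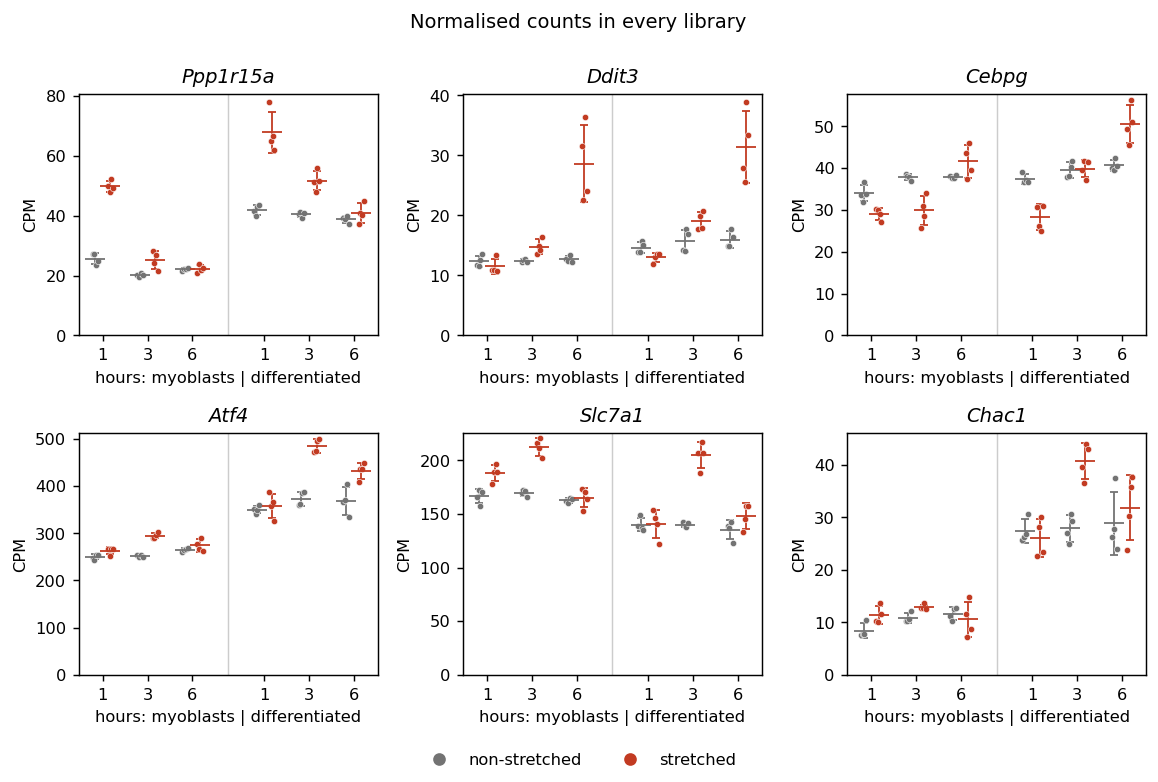
CPM of 6 genes in every library (points), with group mean and SD (bars; n = 4), by hours and stage, non-stretched in grey and stretched in red; each y axis starts at 0. Ppp1r15a separates the groups at 1 h, Atf4, Slc7a1 and Chac1 at 3 h, and Ddit3 at 6 h, while Cebpg is lower in stretched cells at 1 h in both stages.

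At 6 h the ER folding genes moved with Ddit3, and in the same libraries of myoblasts. Of 10 such genes tested, all 10 rose in stretched myoblasts at 6 h and 7 passed both limits, and 9 rose in differentiated cells, 2 of them past both limits, while at 1 h none passed the test in either stage. Of all genes, 14.1% rose at 6 h in myoblasts and 11.5% in differentiated cells, and 1.35% and 0.518% rose past both limits. Hspa5, the ER chaperone BiP, measured 725, 728, 712 and 746 CPM in non-stretched and 2019, 1093, 2135 and 1164 CPM in stretched myoblasts at 6 h (log2 1.14 ± 0.19, adjusted p = 0.00146). Replicates 7 and 9 were again the highest of the stretched libraries, in 1 experiment each. In differentiated cells Hspa5 held 599, 603, 704 and 536 CPM without and 1116, 764, 1260 and 789 CPM with stretching (log2 0.68 ± 0.15, adjusted p = 0.00964). Replicates 7 and 9 were the highest here too, whereas Ddit3 was highest in 9 and 10. Sdf2l1, an ER folding cofactor, rose by 1.43 ± 0.28 in myoblasts and 0.78 ± 0.22 in differentiated cells. The part of ER folding genes in the rise of Ddit3 was not tested.

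Atf4 itself (chr15:80255184-80257541, plus strand), the factor the programme is named for, rose at 3 h in both stages and by little. In myoblasts at 1 h it held 248, 244, 254 and 255 CPM without and 267, 251, 266 and 268 CPM with stretching, and the groups overlapped (log2 0.07 ± 0.03, adjusted p = 0.226). At 3 h the values were 253, 249, 254 and 250 CPM against 291, 290, 297 and 303 CPM. No stretched library came near a non-stretched one, and the rise was 1.18-fold (log2 0.24 ± 0.02, adjusted p = 1.16e-05; 0.21 within B27 and 0.25 within B31). After 6 h the values were 261, 264, 266 and 269 CPM against 278, 266, 291 and 262 CPM, and the groups overlapped (log2 0.05 ± 0.03, adjusted p = 0.306).

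In differentiated cells Atf4 held 351, 341, 350 and 359 CPM at 1 h without stretching and 387, 357, 366 and 326 CPM with it (log2 0.03 ± 0.06, adjusted p = 0.946). At 3 h it held 360, 361, 387 and 387 CPM against 472, 474, 495 and 500 CPM. The groups lay apart by more than their spread, a 1.30-fold rise (log2 0.38 ± 0.04, adjusted p = 0.000192; 0.39 within B25 and 0.36 within B28). At 6 h the non-stretched libraries gave 366, 371, 405 and 334 CPM and the stretched 409, 436, 436 and 449 CPM, still without overlap (log2 0.23 ± 0.06, adjusted p = 0.0156). The effect at 3 h was 0.14 ± 0.04 larger in differentiated cells than in myoblasts, which did not pass the test (adjusted p = 0.13).

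Cebpg (chr7:35046422-35056573, minus strand), a C/EBP factor that pairs with ATF4, fell at 1 h in both stages. In myoblasts at 1 h it held 33.7, 32.0, 36.6 and 33.9 CPM without and 30.1, 30.1, 29.1 and 27.1 CPM with stretching. After 3 h it held 38.7, 38.1, 38 and 36.8 CPM against 25.8, 31, 28.7 and 34.1 CPM. The groups did not overlap at either time, and the falls were 0.23 ± 0.05 at 1 h (log2, adjusted p = 0.0189, up to 0.0702 with 1 library left out) and 0.34 ± 0.06 at 3 h (adjusted p = 0.00129). At 6 h its libraries overlapped, with 38.2, 37.7, 37.7 and 38.3 CPM against 43.7, 37.4, 46.0 and 39.5 CPM (log2 0.14 ± 0.06, adjusted p = 0.0907). In differentiated cells it held 39.1, 36.7, 37.1 and 36.7 CPM at 1 h against 30.7, 26.3, 24.9 and 31.1 CPM in stretched replicates 4, 7, 8 and 9. All stretched libraries were lower (log2 -0.41 ± 0.07, adjusted p = 0.0365, up to 0.157 with 1 library left out; -0.57 within B25 and -0.25 within B28).

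The difference in Cebpg at 3 h did not pass the test in differentiated cells, with 37.9, 38, 40.3 and 41.8 CPM against 39.5, 41.6, 37.1 and 41.4 CPM (log2 0.01 ± 0.05). By 6 h it rose there, from 40.2, 39.6, 42.5 and 40.4 CPM to 49.3, 45.5, 56.2 and 51.2 CPM. The groups did not overlap (log2 0.31 ± 0.06, adjusted p = 0.00407). From 1 h to 6 h the effect increased by 0.36 ± 0.09 in myoblasts (adjusted p = 0.00503) and by 0.72 ± 0.09 in differentiated cells (adjusted p = 3.64e-05). At 3 h it differed between stages by 0.35 ± 0.09 (adjusted p = 0.047, and up to 0.112 with 1 library left out). Of the other transcription factors, Nupr1 fell at 1 h in myoblasts (log2 -0.26 ± 0.06, adjusted p = 0.0205), Cebpb rose at 3 h in myoblasts (0.17 ± 0.05, adjusted p = 0.0153) and Atf5, which acts on mitochondrial stress, rose at 6 h in myoblasts (0.25 ± 0.07, adjusted p = 0.0163).

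Among the feedback and signalling genes, Chac1, a glutathione-degrading enzyme that is often used as a readout of ATF4 and CHOP, rose at 3 h in both stages. In myoblasts at 1 h it held 7.56, 7.70, 7.72 and 10.5 CPM without and 10.2, 9.99, 13.6 and 11.7 CPM with stretching. Replicate 10 of the non-stretched cells lay inside the stretched range, and the difference missed the limit (log2 0.45 ± 0.12, adjusted p = 0.0553). It passed in DESeq2 (adjusted p = 0.00445), without the filter on low counts (0.0145), with the experiment as covariate (0.0149), with the replicate block (0.0308) and without that replicate, and the adjusted p over sets that left out 1 library was 0.0127 to 0.161. After 3 h it held 10.3, 10.3, 10.7 and 12.2 CPM against 12.8, 12.8, 13.6 and 12.5 CPM (log2 0.25 ± 0.06, adjusted p = 0.00535), with no overlap. After 6 h the stretched libraries gave 11.6, 7.28, 14.8 and 8.63 CPM around the non-stretched 11.1, 10.3, 12.5 and 12.8 CPM (log2 -0.13 ± 0.18). Replicates 7 and 9 were again above 8 and 10. The non-stretched libraries themselves held 7.56 to 10.5 CPM at 1 h and 10.3 to 12.8 CPM at 6 h. A change of the stretch effect between these times therefore includes a change in the non-stretched cells.

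In differentiated cells Chac1 overlapped at 1 h, with 25.6, 26.2, 26.9 and 30.7 CPM against 22.6, 28.2, 30 and 23.4 CPM. At 3 h it held 27, 24.9, 30.7 and 29.3 CPM against 39.6, 36.6, 44.0 and 43.1 CPM. The stretched libraries were all higher, by 1.46-fold (log2 0.55 ± 0.07, adjusted p = 0.000824; 0.55 within B25 and 0.54 within B28), just under the fold limit. At 6 h replicate 9 of the non-stretched cells, at 37.5 CPM, stood above replicates 7, 8 and 10 at 26.2, 27.7 and 23.9 CPM, and the stretched libraries gave 23.8, 30.2, 35.8 and 37.6 CPM. No difference passed the test there (log2 0.14 ± 0.16, adjusted p = 0.565).

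Trib3, a pseudokinase that restrains ATF4 and CHOP activity, varied between libraries of a group. In myoblasts at 1 h it held 6.22, 6, 6.2 and 9.01 CPM without and 8.14, 8.22, 13.3 and 9.46 CPM with stretching, and non-stretched replicate 10 lay inside the stretched range (log2 0.52 ± 0.17, adjusted p = 0.108). The difference passed the adjusted p without the filter on low counts (0.0379) and with the experiment as covariate (0.0377), and both limits without that replicate. In differentiated cells at 3 h the difference was 0.31 ± 0.13 (adjusted p = 0.11, and 0.00246 with the experiment as covariate). At 6 h in myoblasts its stretched libraries gave 11.5, 5.22, 15.2 and 6.13 CPM around non-stretched values of 5.94 to 8.27 CPM, and its log2 difference was 0.43 ± 0.28 (adjusted p = 0.287). In differentiated cells at 6 h the stretched replicates gave 9.07, 8.93, 16.6 and 18.1 CPM and the non-stretched 6.29, 7.19, 12.1 and 7.34 CPM. Both B28 libraries were the higher of the stretched ones, and the difference did not pass the test (log2 0.68 ± 0.27, adjusted p = 0.0941), although it passed both limits with the experiment as a covariate (0.64, adjusted p = 0.012) and without replicate 9 of the non-stretched cells. At 3 h in myoblasts Trib3 fell (log2 -0.34 ± 0.11, adjusted p = 0.0326, up to 0.113 with 1 library left out). Sesn2, a leucine sensor that inhibits mTORC1, rose at 3 h in differentiated cells (0.40 ± 0.09, adjusted p = 0.00733). Eif4ebp1, the translational repressor 4E-BP1, rose at 1 h (0.21 ± 0.045) and 3 h (0.11 ± 0.03) in myoblasts and at 3 h in differentiated cells (0.18 ± 0.03), and fell at 6 h in myoblasts (-0.11 ± 0.03).

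Of the 8 genes of amino acid and one-carbon synthesis, 2 rose at 1 h in myoblasts (1.67% of all genes). At 3 h, 4 rose in myoblasts (16%) and 3 in differentiated cells (10.8%). None of the 8 passed the test in the other comparisons. Their log2 fold changes lay between -0.31 and 0.19 over all 6 comparisons. Asns, asparagine synthetase and a classical ATF4 target, held 105, 104, 97.8 and 108 CPM in non-stretched and 113, 107, 119 and 117 CPM in stretched myoblasts at 1 h, overlapping groups (log2 0.14 ± 0.04, adjusted p = 0.0766). After 3 h it held 92.3, 87.0, 88.1 and 92.6 CPM against 95.8, 97.4, 103 and 101 CPM. Here the groups separated by a small step (log2 0.15 ± 0.03, adjusted p = 0.00253). At 6 h they overlapped again, with 89.6, 85.3, 91.1 and 91.2 CPM against 76.9, 75.4, 94.5 and 87.7 CPM (log2 -0.09 ± 0.06).

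In differentiated cells Asns did not pass the test at any time. It held 108, 106, 96.9 and 98.2 CPM at 1 h against 79.2, 103, 104 and 86.9 CPM in stretched replicates 4, 7, 8 and 9, with replicate 4 the lowest. At 3 h it held 111, 101, 105 and 107 CPM against 115, 117, 107 and 107 CPM (log2 0.08 ± 0.04, adjusted p = 0.182). At 6 h non-stretched replicate 9 measured 135 CPM beside 102, 101 and 89.3 CPM in replicates 7, 8 and 10, and the stretched libraries measured 106, 110, 114 and 115 CPM. All 4 stretched libraries thus lay above 3 of the non-stretched ones and below the 4th (log2 0.06 ± 0.10, adjusted p = 0.732). The enzymes of serine synthesis at 3 h rose by 0.13 (Phgdh), 0.08 (Psat1) and 0.10 (Psph) on the log2 scale in myoblasts, and by 0.12 (Phgdh) and 0.15 (Psat1) in differentiated cells.

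Amino acid transporters rose at 1 h and 3 h in myoblasts, 3 and 4 of 7, beside 1.67% and 16% of all genes. At 6 h in myoblasts none rose and 2 of 7 fell, Slc7a5 and Slc6a9, when 13.0% of all genes fell. In differentiated cells none passed the test at 1 h. At 3 h and 6 h 3 of 7 rose there, beside 10.8% and 11.5% of all genes. Slc7a1 (chr5:148327410-148399904, minus strand), the transporter CAT-1 for arginine and lysine, had the lowest adjusted p of the 38 at 3 h in both stages. At 1 h it held 166, 173, 157 and 171 CPM in non-stretched and 178, 189, 197 and 189 CPM in stretched myoblasts, without overlap (log2 0.18 ± 0.04, adjusted p = 0.0245, up to 0.0887 with 1 library left out). After 3 h it held 170, 172, 171 and 166 CPM against 216, 211, 221 and 202 CPM. The groups were far apart relative to their spread, a 1.26-fold rise (log2 0.33 ± 0.03, adjusted p = 6.64e-06; 0.32 within B27 and 0.33 within B31). By 6 h the groups overlapped, with 162, 160, 165 and 164 CPM against 173, 153, 171 and 164 CPM (log2 0.03 ± 0.04).

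In differentiated cells Slc7a1 did not pass the test at 1 h (138, 149, 137 and 135 CPM against 154, 146, 141 and 122 CPM; log2 0.01 ± 0.07). At 3 h it held 142, 138, 138 and 142 CPM against 207, 188, 217 and 207 CPM. This was the widest separation of a transporter, 1.46-fold (log2 0.55 ± 0.04, adjusted p = 4.8e-05; 0.49 within B25 and 0.60 within B28), and it exceeded the effect in myoblasts by 0.21 ± 0.05 (adjusted p = 0.0463, up to 0.115 with 1 library left out). At 6 h it held 139, 137, 142 and 123 CPM against 133, 145, 157 and 158 CPM and no longer passed the test (log2 0.13 ± 0.06, adjusted p = 0.163).

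Of the other transporters, the stages were compared by the test of their difference. Slc3a2 and Slc7a5, which together form the LAT1 carrier of large neutral amino acids, rose at 1 h (log2 0.28 ± 0.04 and 0.22 ± 0.05) and at 3 h (both 0.21 ± 0.03) in myoblasts. Slc7a5 fell at 6 h in myoblasts (log2 -0.17). Neither gene passed edgeR's test in differentiated cells. There Slc7a5 came nearest at 3 h (log2 0.13, adjusted p = 0.0715), and it passed in DESeq2 (adjusted p = 0.0358), with the experiment as covariate (0.00873) and with the replicate block (0.0159), while Slc3a2 (log2 0.06, adjusted p = 0.108) passed in DESeq2 (0.049). For Slc3a2 the stages differed at 3 h by -0.15 ± 0.035 (adjusted p = 0.0279, up to 0.0808 with 1 library left out). Slc1a4, a carrier of alanine and serine, rose in differentiated cells at 3 h (0.24 ± 0.04, adjusted p = 0.00287) and 6 h (0.26 ± 0.07, adjusted p = 0.0221), did not pass in myoblasts, and differed between stages at 3 h by 0.27 ± 0.06 (adjusted p = 0.0175, at most 0.0459 with 1 library left out). Slc38a2, the carrier SNAT2, rose at 3 h in both stages (0.26 ± 0.04 and 0.17 ± 0.04). Slc1a5 rose at 6 h in differentiated cells (0.27 ± 0.08, adjusted p = 0.0364).

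Slc6a9, the glycine transporter GLYT1, was the 1 transporter with a fall of log2 0.4 or more. In myoblasts at 1 h it held 18.2, 18.4, 15.8 and 20.8 CPM against 18.6, 17.8, 26.6 and 18.8 CPM, and at 3 h 16.4, 17.2, 19.0 and 19.8 CPM against 17.2, 17, 18.6 and 16.4 CPM. The groups overlapped at both times. At 6 h the non-stretched libraries held 16.5, 16.5, 15.1 and 16.6 CPM and the stretched 12.1, 11.7, 12.8 and 11.7 CPM, all lower (log2 -0.42 ± 0.05, adjusted p = 0.000217; -0.47 within B27 and -0.38 within B31). The stretch effect at 6 h was below that at 1 h by 0.59 ± 0.14 (adjusted p = 0.00299). In differentiated cells at 1 h it held 53.4, 55.0, 53.2 and 57.1 CPM against 38.2, 51.5, 52.5 and 55.3 CPM, at 3 h 57.0, 55.1, 60.3 and 57.7 CPM against 53.4, 54.4, 57.6 and 56.8 CPM, and at 6 h 51.5, 54.6, 64.5 and 55.2 CPM against 40.4, 45.5, 52.7 and 54.4 CPM. These groups overlapped at each time and no difference passed the test (adjusted p = 0.112 at 6 h), although that at 6 h passed with the experiment as covariate (adjusted p = 0.021) and with the replicate block (0.0325).

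Of the secreted factors, Fgf21 and Gdf15 moved in opposite directions. Fgf21 (chr7:45613886-45615490, minus strand) was measurable in differentiated cells only; in the non-stretched cells there it held 52.0, 51.5, 39.5 and 38.8 CPM at 3 h, and in the stretched ones 35.7, 38.2, 30.4 and 28 CPM. All stretched libraries were lower, and the 2 experiments differed in level: the fall was 0.45 ± 0.12 on the log2 scale (adjusted p = 0.0196, up to 0.0586 with 1 library left out), with differences of -0.49 within B25 and -0.42 within B28. At 6 h it held 49.6, 54.8, 48.1 and 48.4 CPM against 33.1, 38.2, 33.6 and 34.4 CPM (log2 -0.53 ± 0.06, adjusted p = 0.000372). This fall, with no overlap, was close to the fold limit, and at 1 h its groups had overlapped (log2 -0.16 ± 0.21).

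Gdf15 (chr8:70629393-70632456, minus strand), a stress hormone, rose in 4 of the 6 comparisons. In myoblasts it held 29.3, 30, 22 and 27.6 CPM at 1 h against 36.9, 35.8, 45.8 and 37.0 CPM, and 22.5, 23.7, 24.1 and 23.7 CPM at 6 h against 29.3, 29.4, 39.9 and 29.0 CPM. Replicate 9 was the highest stretched library at both times, and all stretched libraries lay above all non-stretched ones (log2 0.52 ± 0.10, adjusted p = 0.0106, and 0.44 ± 0.09, adjusted p = 0.00492). In differentiated cells it was lower in level and rose at 3 h (0.32 ± 0.10, adjusted p = 0.0398) and at 6 h, from 9.27, 8.34, 8.51 and 9.19 CPM to 11.1, 11.4, 12.9 and 12.8 CPM (0.45 ± 0.07, adjusted p = 0.00173). Stc2, a secreted glycoprotein, rose at 3 h in both stages, by 0.41 ± 0.05 (adjusted p = 7.03e-05) and 0.47 ± 0.07 (adjusted p = 0.00127).

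Vldlr passed both limits at 3 h in myoblasts at about 1 CPM. The non-stretched libraries held 1.21, 1.09, 1.79 and 1.32 CPM and the stretched 0.945, 0.828, 0.809 and 0.962 CPM. The groups did not overlap (log2 -0.60 ± 0.17, adjusted p = 0.0153; -0.37 within B27 and -0.79 within B31), but the fold limit was missed without replicate 9 of the non-stretched or replicates 8 or 9 of the stretched cells, and the adjusted p was 0.0995 with all 24 libraries in 1 model. At 1 h it held 1.03, 1.33, 1.19 and 1.73 CPM against 0.870, 0.999, 2.39 and 1.21 CPM, and at 6 h 1.06, 1.23, 0.726 and 0.577 CPM against 0.859, 1.10, 1.24 and 1.2 CPM, overlapping at both times.

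In differentiated cells Vldlr was more than 10 times as abundant. At 1 h it held 13.4, 13.0, 13.0 and 12.1 CPM against 8.73, 14.4, 11.8 and 12.1 CPM, and at 3 h 13.5, 12.4, 13.5 and 14.1 CPM against 11.3, 10.3, 13.3 and 12.9 CPM. The groups overlapped at both times, and the difference at 3 h (log2 -0.16, adjusted p = 0.176) passed with the experiment as covariate (adjusted p = 0.0484). After 6 h the non-stretched libraries held 17.1, 15.0, 16.5 and 16.8 CPM and the stretched 8.38, 9.37, 16.2 and 15.4 CPM. The stretched libraries of B25 were low and those of B28 lay near or within the non-stretched range (log2 -0.85 within B25 and -0.08 within B28), and the pooled difference did not pass the test (-0.41 ± 0.18, adjusted p = 0.139), although it passed with the experiment as covariate (adjusted p = 0.0391).

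**Figure D5:**
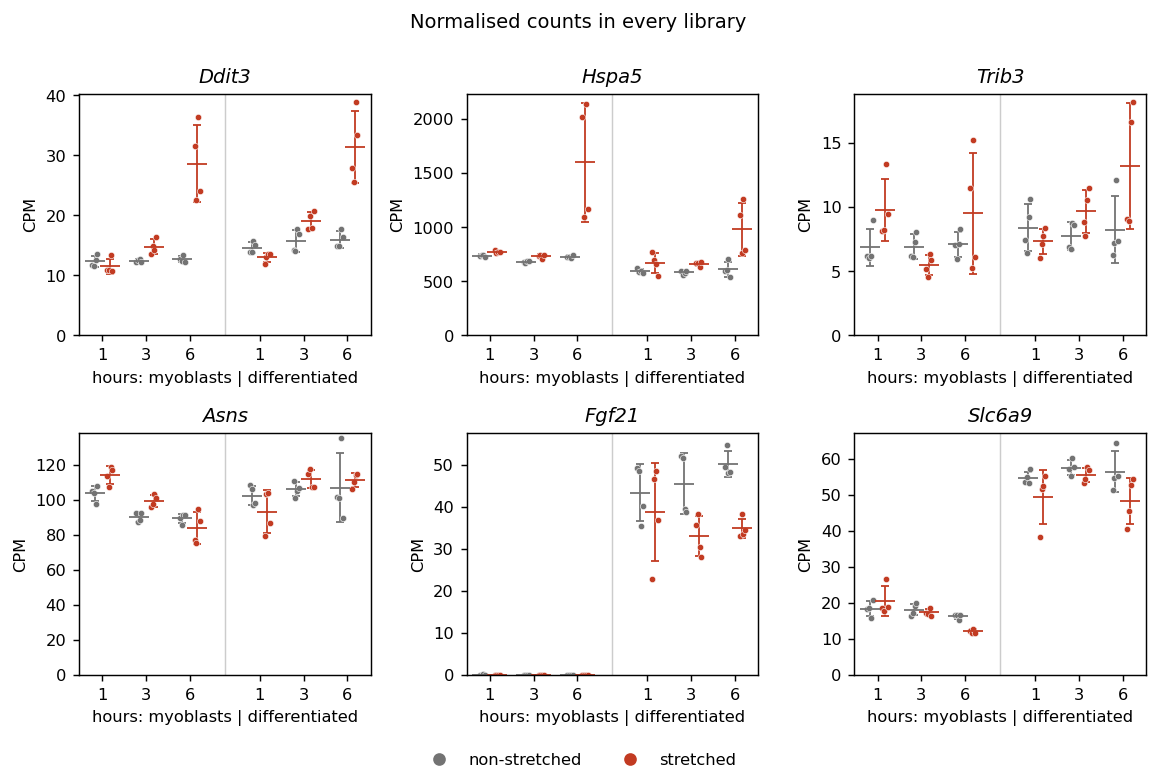
CPM of 5 genes of the set and of the ER chaperone gene Hspa5 in every library (points), with group mean and SD (bars; n = 4), by hours and stage, non-stretched in grey and stretched in red; each y axis starts at 0. At 6 h Ddit3 and Hspa5 are higher in all stretched libraries but spread, Trib3 spreads within groups, 1 non-stretched library of differentiated cells is high for Asns (135 CPM), and Fgf21 is near 0 in myoblasts.

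Differences of the tRNA synthetase genes, which charge tRNAs with amino acids, were small. In myoblasts 2 of 8 rose at 1 h, 4 at 3 h and 1 at 6 h, when Mars fell. Of all genes, 1.67%, 16% and 14.1% rose there. In differentiated cells none passed at 1 h, 3 of 8 rose at 3 h and 1 at 6 h, beside 10.8% and 11.5% of all genes at 3 h and 6 h. The 1 of 8 that rose at 6 h was thus near the background in both stages. All 8 log2 fold changes were positive at 1 h and 3 h in myoblasts, between 0.01 and 0.13, with medians of 0.11 and 0.07. By 6 h 3 were positive and 5 negative there, Aars rising by 0.15 and Mars falling by 0.14. Aars, Gars and Nars rose at 3 h in both stages, by 0.09 to 0.14. Aars shares 13.9% of its stretches of 31 bases with other genes, mostly Exosc6. Of 12 cytosolic synthetase genes outside the set, 3 rose at 3 h in myoblasts and 2 in differentiated cells, with medians of 0.02 and 0.04. The background of rising genes at 3 h was 16% and 10.8%, respectively.

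At 3 h the stages had 13 rising genes in common, out of 22 genes that passed the test in myoblasts and 17 of the same 37 in differentiated cells. These were Atf4, Ddit3, Ppp1r15a, Chac1, Eif4ebp1, Psat1, Phgdh, Slc7a1, Slc38a2, Stc2, Aars, Gars and Nars, which span all 6 roles. Of all 14249 genes tested in both stages, 7.59% rose in both at 3 h. At 1 h the genes in common were Ppp1r15a, higher, and Cebpg, lower, of 12 in myoblasts and 2 in differentiated cells, and at 6 h Ddit3 and Gdf15, both higher, of 8 in each. Of all genes tested in both stages, 0.168% rose and 0.44% fell in both at 1 h, and 6.33% rose in both at 6 h. At 1 h 33 of 37 log2 fold changes were positive in myoblasts and 32 of 38 negative in differentiated cells. In the latter the median over genes was -0.15 in stretched replicate 4 and -0.09 in replicate 9, relative to the non-stretched mean, but 0.02 and 0.04 in replicates 7 and 8. At 3 h the corresponding medians were 0.06 to 0.10 in the 4 stretched myoblast libraries and 0.07 to 0.13 in those of differentiated cells, positive in all 8.

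The stretch effect itself was then compared between times and between stages, by interaction terms. Because the stages came from different experiments, a difference between stages cannot be told apart from one between experiments. In myoblasts the stretch effect differed between 6 h and 1 h for 17 of 37 genes (21.1% of all genes), 2 of them higher at 6 h, Ddit3 and Cebpg, and 15 lower, among them Ppp1r15a, Chac1 (-0.59 ± 0.21, adjusted p = 0.0497), Slc7a5 (-0.39 ± 0.07), Eif4ebp1 (-0.32 ± 0.05), Aldh18a1 (-0.26 ± 0.06) and Asns (-0.23 ± 0.07, adjusted p = 0.0242). Of all genes 11.6% were higher and 9.42% lower. For Chac1 the level in non-stretched myoblasts was itself higher at 6 h than at 1 h. Without non-stretched replicate 10 or stretched replicate 8 of the myoblasts at 6 h, 10 and 11 genes passed the test, and 22 did without stretched replicate 9. In differentiated cells the effect differed for 6 of 38 (11.9% of all genes, 6.73% higher and 5.13% lower), 5 higher at 6 h (Ddit3, Cebpg, Nupr1, Slc1a5 and Nars) and Ppp1r15a lower, and for 18 without non-stretched replicate 9 at 6 h or 10 without stretched replicate 4 at 1 h.

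Between stages the effect differed for 0 of 38 genes at 1 h in edgeR's test and in DESeq2, with 18 at an unadjusted p under 0.05 and 0.0% of all genes past the test. After 3 h it differed for 4 of 38 (1.79% of all genes, 1.13% higher and 0.658% lower), Cebpg, Slc1a4 and Slc7a1 higher and Slc3a2 lower in differentiated cells, and leaving out 1 library of either stage gave 1 to 4 genes, with Slc1a4 the 1 gene that passed in every set. At 6 h it differed for 0 of 38 in both tools (5.18% of all genes), with 7 at an unadjusted p under 0.05, and for 9, all higher in differentiated cells, without their non-stretched replicate 9.

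Time in culture alone was examined in non-stretched cells, between 6 h and 1 h. In myoblasts 26 of the 37 genes were lower at 6 h and 11 higher (median log2 -0.071, against -0.002 over all genes). In differentiated cells 8 were lower and 30 higher (median 0.042, against -0.004 over all genes). Between non-stretched myoblasts at 6 h and 1 h, 3 of 37 passed an adjusted p of 0.05 (0.788% of all genes), Sesn2 higher (log2 0.33 ± 0.05) and Asns (-0.22 ± 0.04) and Psph (-0.25 ± 0.04) lower, and none passed both limits (0.0668%), while 21 had an unadjusted p under 0.05 and DESeq2 put 9 past the adjusted p. None of the 3 passed in every set that left out 1 library. The largest rise of the 37 was that of Chac1 (log2 0.48), which did not pass edgeR's test. It passed both limits without non-stretched replicate 10 at 1 h. In differentiated cells none of 38 passed (0.0% of all genes), with 4 at an unadjusted p under 0.05, and 1 in DESeq2. Of 6 proliferating cell markers, all 6 were lower in non-stretched differentiated cells at 6 h than at 1 h (median log2 -0.54, from -0.55 to -0.35), none past the test, and in non-stretched myoblasts the median was 0.06. With stretching, 4 of 6 fell at 6 h in myoblasts (median log2 -0.13), when 13.0% of all genes fell. At 3 h in differentiated cells 3 of 6 rose (median 0.13), when 10.8% of all genes rose. The part of these markers in the results above was not tested.

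The genes upstream of ATF4, the eIF2 kinases, the subunits of eIF2 and its exchange factor eIF2B and the constitutive phosphatase subunit, were described by a list of 16 measured genes, none of which passed both limits at any time. In myoblasts 1 fell at 1 h, 7 rose and 2 fell at 3 h, and 4 rose and 3 fell at 6 h, and in differentiated cells none, 4 and 4 rose and none, 1 and 1 fell. The shares past the test were 6.2%, 56.2% and 43.8% in myoblasts, beside 5.92%, 31.9% and 27.2% of all genes. In differentiated cells they were 0.0%, 31.2% and 31.2%, beside 0.663%, 22.2% and 22.3%. The ER kinase PERK (Eif2ak3) fell at 3 h in myoblasts (log2 -0.25, adjusted p = 0.000205) and rose at 6 h (0.48, adjusted p = 0.000391), and in differentiated cells rose at 6 h (0.17, adjusted p = 0.0216). Impact, which restrains the amino acid sensing kinase GCN2, rose at 3 h and 6 h in both stages, by 0.41 and 0.37 in myoblasts and 0.16 and 0.27 in differentiated cells. These genes are named for their role after their values were seen.

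Of 17 further known ATF4 targets outside the set, 4 rose and 1 fell at 1 h in myoblasts, and 5 rose and 2 fell at 3 h and again at 6 h. These shares were 29.4%, 41.2% and 41.2%, beside 5.92%, 31.9% and 27.2% of all genes. At 3 h in myoblasts the list hardly moved as a whole, with a median log2 fold change of 0.02, 9 genes positive and 8 negative. In differentiated cells none passed at 1 h, 7 of 16 rose at 3 h, and 7 rose and 1 fell at 6 h. Of all genes 0.663%, 22.2% and 22.3% passed there, and the medians of the list were -0.025, 0.17 and 0.18. Atf3, an early stress factor that ERK signalling also induces, passed both limits at 1 h in myoblasts, from 10.8, 10.8, 10.9 and 11.9 CPM to 16.7, 16.4, 19.9 and 19.2 CPM (log2 0.70 ± 0.07, adjusted p = 0.000156), and at 3 h in differentiated cells (0.62 ± 0.10, adjusted p = 0.0016). Its groups did not overlap in either case. In stretched differentiated cells at 1 h it stood at 44.5 CPM in replicate 4 and 16.3, 16.5 and 12.7 CPM in replicates 7, 8 and 9, against 6.45 to 8.16 CPM without stretching, all higher but not past the test (adjusted p = 0.0792). Herpud1, an ER-associated degradation gene, passed both limits at 6 h in myoblasts (1.29 ± 0.17, adjusted p = 0.000409), and its effect differed between stages at 6 h (-0.90 ± 0.21 in differentiated cells against myoblasts, adjusted p = 0.0213).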

How the data were processed

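RNA of C2C12 myoblasts and differentiated cells was sequenced in 48 libraries with a strand-marking mRNA kit. Per the labels and the study's methods, the authors aligned reads to mm10 with STAR and quantified them with Salmon, and deposited an estimated count per gene symbol and library, as whole numbers without normalization, in 1 table per stage (47480 symbols). Salmon shares reads between similar transcripts by likelihood, so genes with near copies are less certain. All 48 columns were used.

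Counts were tested with edgeR 4.0.16 (R 4.3.3; filterByExpr, TMM factors, quasi-likelihood F test, 8 libraries per comparison without covariates), with Benjamini-Hochberg adjustment over all genes tested. An adjusted p under 0.05 was called a rise or fall, and the study's fold limit (log2 0.58) was added for both limits. Differences of stretch effects were interaction terms over 24 libraries of a stage or 16 of a time point. CPM values were scaled by TMM within a stage; SEs are the fold change divided by the root of F. DESeq2 1.42.0, RLE factors, no filter, the experiment as covariate, the replicate number as block and leaving out each library were the alternatives. On simulated counts, 99.5% of 200 genes changed by log2 1 were recovered among 14807 in the comparison of myoblasts at 6 h, with 10 false calls. In the interaction tests recovery was 97.5% between times in myoblasts (9 false calls) and 96% between stages at 6 h (6 false calls). Smaller changes, as most of those above, were not simulated, so how often such changes pass is not known.

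The genes and lists were chosen with earlier results of these data known, and the search for TGACGTCA and the counts by adjusted p alone across alternatives were added after values were seen. Values in every library are given for genes past both limits in a comparison, for those with a passed interaction and an absolute change of 0.4 (log2) or more, and for Atf4 and Asns; Fgf21, Gdf15, Trib3, Atf3 and Hspa5 were added after their values were seen. From the other lists, at most the 3 genes with the smallest p past both limits were named, and exceptions are stated. Of the list of other cell types' markers, 1 gene is not reported here. Annotation was GENCODE vM21 (95.2% of symbols matched); promoter sequences are RefSeq's (GRCm38.p6). Totals of 48447318 to 77080730 counts per library leave sampling error small beside the spread between libraries, except for genes near 1 CPM.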

Additional observations from a re-analysis of the deposited data

Results flagged for a closer look

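Of 108 groups of 4 libraries tested for a library far from the rest, over 9 genes, 5 had one, and chance alone gives about 5% of groups. These were Atf4 in stretched myoblasts at 1 h (replicate 8 at 251 CPM, low), Ddit3 in stretched myoblasts at 1 h (replicate 9 at 13.4 CPM, high), Chac1 in non-stretched myoblasts at 1 h (replicate 10 at 10.5 CPM, high), Slc6a9 in stretched myoblasts at 1 h (replicate 9 at 26.6 CPM, high) and Slc6a9 in non-stretched myoblasts at 6 h (replicate 9 at 15.1 CPM, low).

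The stretch effect differed in time, by the interaction test, for 7 of these genes in myoblasts (6 h minus 1 h on the log2 scale): Ddit3 by 1.28, Cebpg by 0.36, Ppp1r15a by -0.95, Chac1 by -0.59, Slc6a9 by -0.59, Asns by -0.23 and Slc7a1 by -0.15. In differentiated cells it differed for Ddit3 by 1.15, Cebpg by 0.72 and Ppp1r15a by -0.61. Between stages at 3 h (differentiated cells minus myoblasts) it differed for Cebpg by 0.35 and Slc7a1 by 0.21, and both lost the call in some of the sets that left out 1 library.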

How the results depend on the processing

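Ppp1r15a at 1 h and Ddit3 at 6 h passed both limits in both stages under every alternative run. The count of genes past both limits changed at 3 h in myoblasts to 0 with all 24 libraries in 1 model, and at 6 h in differentiated cells to 2 (Ddit3 and Trib3) with all 24 libraries, with the experiment as covariate and with the replicate block. Without the fold limit the counts were 12, 22 and 8 at 1, 3 and 6 h in myoblasts and 2, 18 and 9 in differentiated cells, and that at 3 h in myoblasts became 12 with all 24 libraries, an alternative chosen after the values were seen. At 1 h in myoblasts the count was 18 in DESeq2 and 16 with the experiment as covariate. At 3 h in differentiated cells it was 23 in DESeq2, 22 with the experiment as covariate and 12 with all 24 libraries. The count of genes whose effect differed between 6 h and 1 h in differentiated cells became 11 with the experiment as covariate and with the block, and that between stages at 3 h became 7 in DESeq2 and 8 with the experiment as covariate. The cause was not tested. Over all genes kept by the filter, libraries of the same replicate number shared little: 1 of 23 pairs had a correlation of deviations over 0.1, and they ranged from -0.05 to 0.10. A correlation over so many genes cannot show whether a smaller number of genes was paired.

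Leaving out 1 library gave 1 to 2, 0 to 1 and 1 to 1 genes past both limits at 1, 3 and 6 h in myoblasts and 1 to 1, 0 to 2 and 1 to 2 in differentiated cells. Past the adjusted p alone it gave 3 to 15, 17 to 21 and 5 to 8 in myoblasts and 1 to 2, 12 to 18 and 6 to 21 in differentiated cells. Effects that differed in time numbered 10 to 22 in myoblasts and 4 to 18 in differentiated cells, and between stages 0 to 0, 1 to 4 and 0 to 9 at 1, 3 and 6 h. Between non-stretched cells at 6 h and 1 h 0 to 1 genes passed both limits in myoblasts and 0 to 0 in differentiated cells. For the 9 genes followed through every alternative in the 6 stretch comparisons, no difference past the adjusted p reversed its direction. Differences that passed neither in the main test nor in the alternative changed sign in some settings. This occurred 2 times with the experiment as covariate, 2 times with the replicate block and 15 times with 1 library left out.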
